A study of Mus musculus with 6 samples.

Results

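The genes described here encode the enzymes and regulators that make sterols and fatty acids under the control of the sterol regulatory element binding proteins (SREBPs). The 30 members were chosen by function, with no measured value in the rule, but with earlier results of these data known. Of these, 29 had a level among the 18194 genes of the array, and Acat2 was not analysed here. Each gene was represented by the probe set with the highest mean intensity, and 20 of the 29 members had several probe sets. The sterol branch held 18 members, the fatty acid branch 8, and 3 members were regulators (Srebf1, Srebf2 and Insig1).

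Total RNA came from embryonic stem cells of mice (129/B6 hybrid), grown in serum with leukaemia inhibitory factor on either irradiated feeder fibroblasts or gelatin. The 6 arrays came from 3 clones. Clone 3031 was wild type for Yaf2 (Yaf2wt), and clones 3086 and 3087 carried the Yaf2 knockdown (Yaf2kd), which the labels also write as mutant Yaf2. Each clone gave 1 array after 4-hydroxytamoxifen at 0.8 µM for 24 hours (OHT+), which was given to deplete Rybp, and 1 array without it (OHT-). The groups were therefore Yaf2wt OHT- (1 array), Yaf2wt OHT+ (1 array), Yaf2kd OHT- (2 arrays) and Yaf2kd OHT+ (2 arrays). By the labels, each clone was wild type for RYBP without OHT and mutant with it. What drives the deletion, and how long after treatment cells were harvested, is not stated in the labels. Yaf2wt is 1 clone, so Yaf2 status and clone 3031 cannot be told apart. The p-values and standard errors (SE) come from limma, which pools a gene's spread between these samples with that of other genes of like signal. In the Yaf2 comparison averaged over OHT, a gene's own spread is only that between clones 3086 and 3087. It holds no spread among Yaf2wt clones.

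Cholesterol is built from acetyl-CoA through mevalonate, farnesyl pyrophosphate, squalene and lanosterol, and fatty acids are built from the same acetyl-CoA through malonyl-CoA. SREBPs are membrane-bound transcription factors that are escorted from the endoplasmic reticulum and cleaved when sterols are low, and INSIG1 holds them back when sterols are plentiful. SREBP2 (gene Srebf2) is best known for the sterol enzymes and SREBP1 (gene Srebf1) for the fatty acid enzymes. The nuclear factor NF-Y, which binds the CCAAT box, and SP1, which binds the GC box, are their usual partners at promoters. Rybp and Yaf2 are related subunits of variant Polycomb repressive complex 1.

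RefSeq promoter windows (GRCm38.p6, 250 bases before to 50 bases after the start) were found for 23 of the 30 genes; Fdps, Fdft1, Sqle, Stard4, Scd1, Scd2 and Fads1 had no entry. The 250 bases before the start are shown for Hmgcs1, Msmo1 and Nsdhl, which were among the 4 sterol genes with the greatest Yaf2kd to Yaf2wt difference. Those of Fasn and Elovl6, fatty acid genes that lay on opposite sides of Yaf2wt, are set beside them. Capitals mark matches on either strand to the CCAAT box (CCAAT), the GC box (GGGCGG) and the core of a sterol regulatory element (TCACNCCAC), with overlapping matches all counted. Each sequence reads 5′ to 3′ on the strand of its gene, at chr13:119690101-119690350 (plus strand) for Hmgcs1, chr8:64733579-64733828 (minus) for Msmo1, chrX:72918271-72918520 (plus) for Nsdhl, chr11:120824548-120824797 (minus) for Fasn and chr3:129532136-129532385 (plus) for Elovl6.
Hmgcs1: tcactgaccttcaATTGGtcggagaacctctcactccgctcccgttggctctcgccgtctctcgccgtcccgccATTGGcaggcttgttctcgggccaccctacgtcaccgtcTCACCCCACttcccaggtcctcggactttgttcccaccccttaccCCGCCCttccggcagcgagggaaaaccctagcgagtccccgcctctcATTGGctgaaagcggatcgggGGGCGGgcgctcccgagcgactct
Msmo1: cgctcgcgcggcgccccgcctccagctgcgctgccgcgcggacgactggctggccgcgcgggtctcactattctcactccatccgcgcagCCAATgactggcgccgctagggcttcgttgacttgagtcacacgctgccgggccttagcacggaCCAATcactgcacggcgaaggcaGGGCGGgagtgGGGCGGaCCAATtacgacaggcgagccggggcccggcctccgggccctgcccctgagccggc
Nsdhl: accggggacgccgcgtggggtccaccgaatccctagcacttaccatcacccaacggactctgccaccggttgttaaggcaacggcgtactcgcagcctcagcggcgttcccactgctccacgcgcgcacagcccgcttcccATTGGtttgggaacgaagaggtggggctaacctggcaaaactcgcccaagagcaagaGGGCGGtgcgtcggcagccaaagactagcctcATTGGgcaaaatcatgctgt
Fasn: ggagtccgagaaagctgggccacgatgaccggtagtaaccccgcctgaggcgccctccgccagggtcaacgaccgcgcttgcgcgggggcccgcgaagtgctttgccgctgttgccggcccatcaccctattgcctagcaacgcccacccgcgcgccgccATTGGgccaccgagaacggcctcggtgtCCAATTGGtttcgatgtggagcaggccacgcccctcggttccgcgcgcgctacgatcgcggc
Elovl6: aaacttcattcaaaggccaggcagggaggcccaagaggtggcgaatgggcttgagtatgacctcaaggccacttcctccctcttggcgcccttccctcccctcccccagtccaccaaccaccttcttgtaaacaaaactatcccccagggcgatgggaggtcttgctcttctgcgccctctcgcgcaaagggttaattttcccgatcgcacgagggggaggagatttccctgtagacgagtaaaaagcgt
Hmgcs1 held 3 CCAAT boxes, 2 GC boxes and the sterol element core in these bases, Msmo1 3 CCAAT and 2 GC boxes, and Nsdhl 2 CCAAT boxes and 1 GC box. Fasn held 3 CCAAT boxes, a pair of which overlap on opposite strands, and Elovl6 held none of the 3 motifs. Over the whole windows, a CCAAT box was found in 19 of the 23 genes (14 of 15 of the sterol branch, 2 of 5 of the fatty acid branch, 3 of 3 regulators), against 41.1% of all 27025 genes with a window and 43.1% of the 8893 among them with higher signal on these arrays. A GC box was likewise found in 19 of 23 (14 of 15, 2 of 5 and 3 of 3), against 38.2% of all genes and 71.6% of those with higher signal. The sterol element core was found in 1 of 23, Hmgcs1, against 1.44% of all genes. These matches describe letters in a short window and no binding was measured.

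The labels were checked first on the targeted genes. Both Yaf2 probe sets were lower on the 4 Yaf2kd arrays (intensity 221 to 254 and 238 to 297) than on the 2 Yaf2wt arrays (601 to 658 and 769 to 816). The 2 probe sets annotated jointly to Rybp and its pseudogene Rybp-ps moved in opposite directions with OHT: one read 1785 to 2262 on OHT- arrays and 53.9 to 102 on OHT+ arrays, and the other 180 to 336 and 2796 to 3443. All 12 embryonic stem cell markers were above 106, the intensity under which the 40% of genes of lowest mean signal lay, on every array. Among markers of feeder fibroblasts, 5 of 14 were above that limit on every array and Lum and Dcn were below it on all; among endoderm markers it was 4 of 12, with Foxa2, Afp, Ttr, Apoa1 and Apob below it on all. Ratios of 3′ to 5′ control probe sets, a measure of RNA integrity, ran from 0.801 to 0.832 for Gapdh and from 1.31 to 1.44 for beta-actin. All 29 members were of higher signal, that is, among the other 60% of genes (10916).

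Sterol genes read higher in the Yaf2kd clones than in the Yaf2wt clone. With OHT+ and OHT- arrays of each clone averaged, all 18 sterol members were higher in Yaf2kd, by a median of 0.48 on the log2 scale, and 7 of 8 fatty acid members were higher, by a median of 0.33. With all probe sets of a gene averaged in place of the brightest, 16 of 18 sterol members (all but Cyp51 and Sc5d) and 25 of 29 members were higher, and without the Yaf2wt OHT+ array it was 17 of 18 (all but Tm7sf2) and 26 of 29. The largest sterol differences were those of Fdps, Msmo1, Hmgcs1 and Nsdhl, at 1.73, 1.71, 1.62 and 1.57 fold. Elovl6 was the 1 member of 29 that read lower. No member passed limma's test after Benjamini-Hochberg adjustment over all 18194 genes, at a threshold of 0.05, and neither did any other gene (0%). At an unadjusted p under 0.05 in limma, 17 members were higher and 1 lower, where 4.17% of all genes were higher and 3.2% lower. The lowest adjusted p was 0.235 among members and 0.16 among all genes. All genes had a median difference of 0.04, and 54.8% of them were higher.

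The arrays separated completely for most members. All 4 Yaf2kd arrays lay above both Yaf2wt arrays for 20 of 29 members, against 11% of all genes and 12.9% of genes of higher signal. This was so for 14 of 18 sterol members (all but Mvk, Tm7sf2, Hsd17b7 and Ebp), 4 of 8 fatty acid members (Acaca, Fasn, Scd1 and Fads1) and the regulators Srebf1 and Insig1. For no member did all 4 Yaf2kd arrays lie below both Yaf2wt arrays, against 7.5% of all genes and 9.12% of genes of higher signal.

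**Figure D1:**
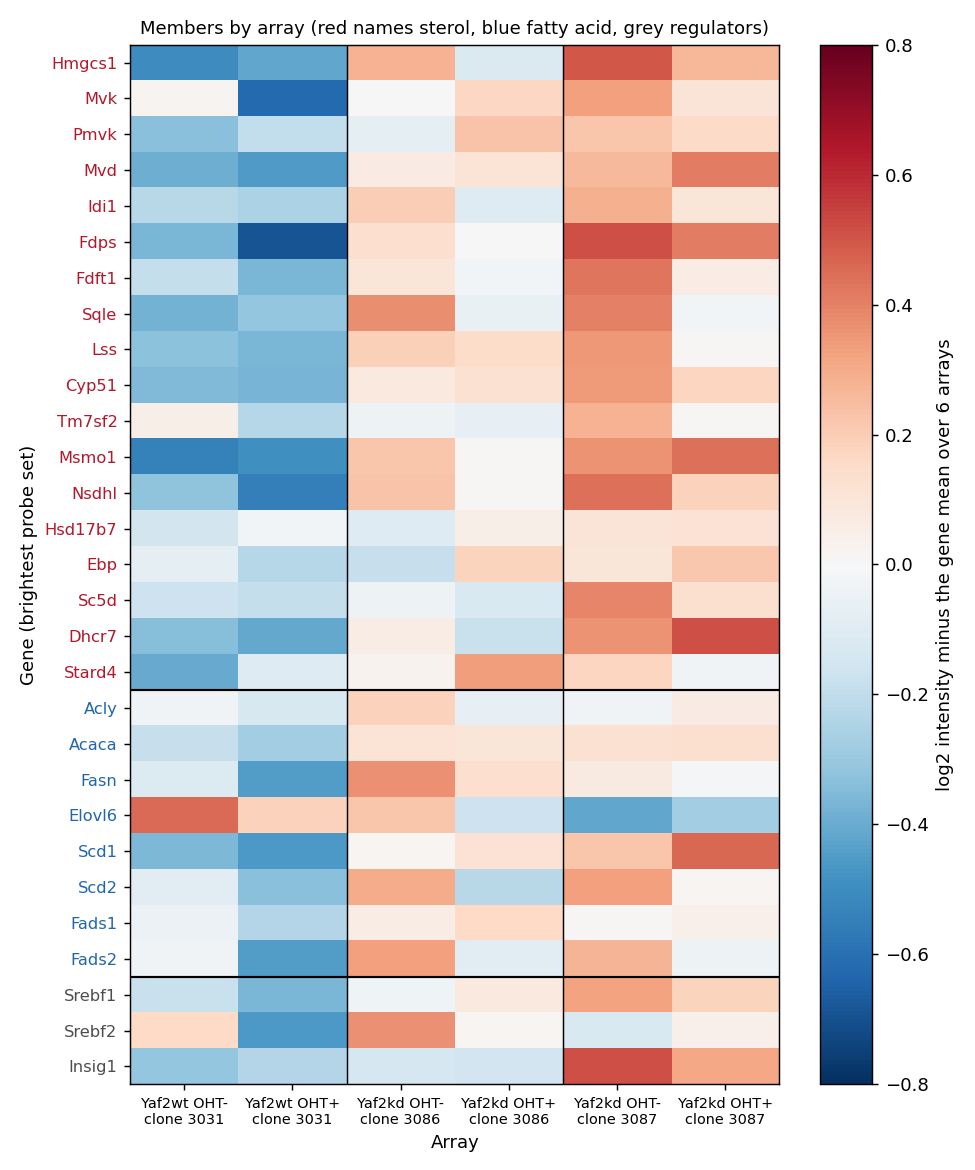
Heat map of the 29 measured members (rows, by branch) on the 6 arrays (columns, by clone), as log2 intensity minus the gene's mean over the 6 arrays. The median deviation of the sterol branch was -0.33 and -0.36 on the Yaf2wt arrays without and with OHT, and 0.07, 0.01, 0.35 and 0.14 on the Yaf2kd arrays in the order drawn; Elovl6 runs the other way.

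In the mevalonate segment, Hmgcs1, which condenses acetyl-CoA with acetoacetyl-CoA to HMG-CoA, read 3767 without OHT and 4006 with it in clone 3031, 6477 and 4933 in clone 3086, and 7530 and 6436 in clone 3087. Both Yaf2wt values were below the lowest Yaf2kd value. The log2 difference was 0.69 ± 0.13 (SE of limma, pooled with other genes, 2 clones against 1), with a limma adjusted p of 0.235. Fdps, which makes farnesyl pyrophosphate, read 2821 without and 2237 with OHT in clone 3031, against 3980 and 3613 in clone 3086 and 5196 and 4803 in clone 3087, in the same order without overlap. Its difference was 0.79 ± 0.15 (adjusted p 0.235), and it was higher in clone 3087 (0.99 above clone 3031) than in clone 3086 (0.59 above).

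Mvk, the kinase that phosphorylates mevalonate, was the mevalonate member whose arrays overlapped. It read 224 without OHT and 143 with it in clone 3031, 220 and 248 in clone 3086, and 276 and 237 in clone 3087, so that the Yaf2wt array without OHT lay among the Yaf2kd arrays. Its difference was 0.45 ± 0.27. The other probe set of Mvk, also of higher signal, gave 0.93 without overlap. Pmvk, Mvd and Idi1, the next enzymes of the segment, ran from 518 to 764, from 492 to 893 and from 1294 to 1879 over the 6 arrays without overlap between the Yaf2 groups, and were higher in Yaf2kd by 0.40 ± 0.17, 0.63 ± 0.17 and 0.36 ± 0.13. The other probe set of Mvd gave 0.48 without overlap, and that of Idi1 gave 0.27 with overlap. The 6 measured members of the segment had a median difference of 0.54. In limma 5 were higher at an unadjusted p under 0.05, where 4.17% of all genes were higher and 3.2% lower.

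From squalene to cholesterol, the 11 members had a median difference of 0.52. In limma 7 were higher at an unadjusted p under 0.05, where 4.17% of all genes were higher and 3.2% lower. Msmo1, the C4 methylsterol oxidase formerly written Sc4mol, read 1703 without OHT and 1759.9 with it in clone 3031, 2869 and 2488 in clone 3086, and 3169 and 3357 in clone 3087. All Yaf2kd values were above both Yaf2wt values, by 0.77 ± 0.14 on the mean (adjusted p 0.235). The other probe set of Msmo1 gave 0.46 with overlap. Nsdhl, which acts on the same C4 carbon as the decarboxylating dehydrogenase, read 698 and 595 in clone 3031, 1019 and 878 in clone 3086, and 1186 and 992 in clone 3087, in the order without and with OHT. Again the groups did not overlap, with a difference of 0.65 ± 0.16 (adjusted p 0.376).

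Sqle, the squalene epoxidase that is a control point of the pathway, read 1294 without OHT and 1365 with it in clone 3031, 2183 and 1623 in clone 3086, and 2221 and 1665 in clone 3087. The Yaf2wt arrays were lowest, and the 2 Yaf2kd clones gave nearly equal values at each OHT status. Its difference was 0.52 ± 0.12 (adjusted p 0.376). Fdft1, squalene synthase, read 2271 without and 2018 with OHT in clone 3031, 2779 and 2559.7 in clone 3086, and 3484 and 2693 in clone 3087, with all Yaf2kd arrays higher by a mean of 0.42 ± 0.13.

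Other members of this stretch spread widely. Dhcr7, which makes cholesterol from its last precursor on one route, was higher by 0.56 ± 0.19 without overlap. Cyp51, the lanosterol demethylase, was higher by 0.54 ± 0.15 and Lss, lanosterol synthase, by 0.52 ± 0.17, both without overlap on the brightest probe set. The other probe sets of Cyp51 gave 0.20 with overlap (higher signal) and -0.78 (lower signal). Those of Lss gave 0.31 without overlap (higher signal) and -0.53 (lower signal). Sc5d, the C5 desaturase, was higher by 0.27 ± 0.17 with no overlap on its brightest probe set, while its other probe sets gave -0.35 (higher signal) and -0.37 (lower signal). The isomerase Ebp (0.23 ± 0.16), the C14 sterol reductase Tm7sf2 (0.13 ± 0.18) and the ketosteroid reductase Hsd17b7 (0.13 ± 0.25) had the smallest differences of the branch, and their arrays overlapped. Stard4, a cytosolic sterol carrier that makes no sterol itself, was higher by 0.38 ± 0.19 without overlap on its brightest probe set. Its other probe sets gave 0.31 and 0.44, each with overlap.

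**Figure D2:**
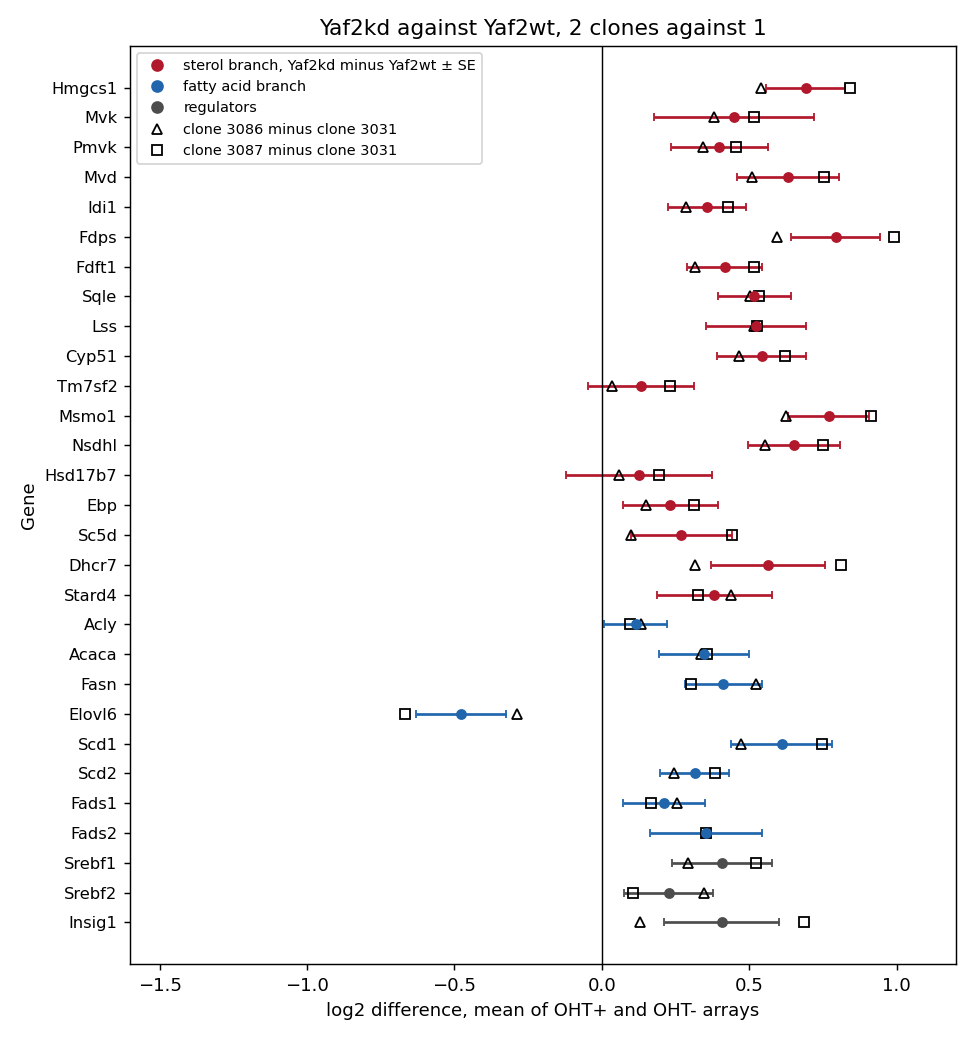
Log2 difference between Yaf2kd and Yaf2wt for each member, OHT+ and OHT- arrays averaged by clone; circles are 2 Yaf2kd clones against 1 Yaf2wt clone with the SE of limma, triangles are clone 3086 and squares clone 3087, each minus clone 3031. All sterol members lie right of 0 in both clones, from 0.13 to 0.79 on the mean, and Elovl6 lies left of 0 at -0.48.

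The fatty acid branch was less uniform. Scd1, a stearoyl-CoA desaturase that makes monounsaturated fatty acids, read 592 without OHT and 553 with it in clone 3031, 767 and 822 in clone 3086, and 884 and 1046 in clone 3087, with no overlap and a difference of 0.61 ± 0.17 (adjusted p 0.456). Fasn, fatty acid synthase, read 2081 without and 1638 with OHT in clone 3031, 2877 and 2450.1 in clone 3086, and 2348 and 2206 in clone 3087. Its Yaf2kd arrays were all higher, by 0.41 ± 0.13 (adjusted p 0.513), though the lowest of them was close to the Yaf2wt array without OHT.

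Elovl6, the elongase that extends palmitate to stearate, read 3425 without OHT and 2836 with it in clone 3031, 2925 and 2232 in clone 3086, and 1866 and 2061 in clone 3087. The Yaf2wt array without OHT was highest, but the clone 3086 array without OHT lay above the Yaf2wt array with OHT, so the groups overlapped. Its difference was -0.48 ± 0.15 (adjusted p 0.517). The other probe sets of Elovl6 gave -0.15 and -0.46.

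Fads2, the delta-6 desaturase of polyunsaturated fatty acids, read 448 without OHT and 335 with it in clone 3031, 572 and 429 in clone 3086, and 551 and 444 in clone 3087. The Yaf2 groups overlapped, with a difference of 0.35 ± 0.19. Its other probe set of higher signal gave 0.36 without overlap, and that of lower signal 0.20 with overlap. Scd2, the other desaturase of this kind measured here, was higher in Yaf2kd by 0.31 ± 0.12 with overlap, Acaca, the acetyl-CoA carboxylase, by 0.35 ± 0.15 without overlap, and Fads1, the delta-5 desaturase, by 0.21 ± 0.14 without overlap. The other probe sets of Scd2 gave 0.41 without overlap and 0.56 with overlap, and that of Fads1 gave -0.22. Acly, which supplies cytosolic acetyl-CoA from citrate to both branches, differed by 0.12 ± 0.11.

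**Figure D3:**
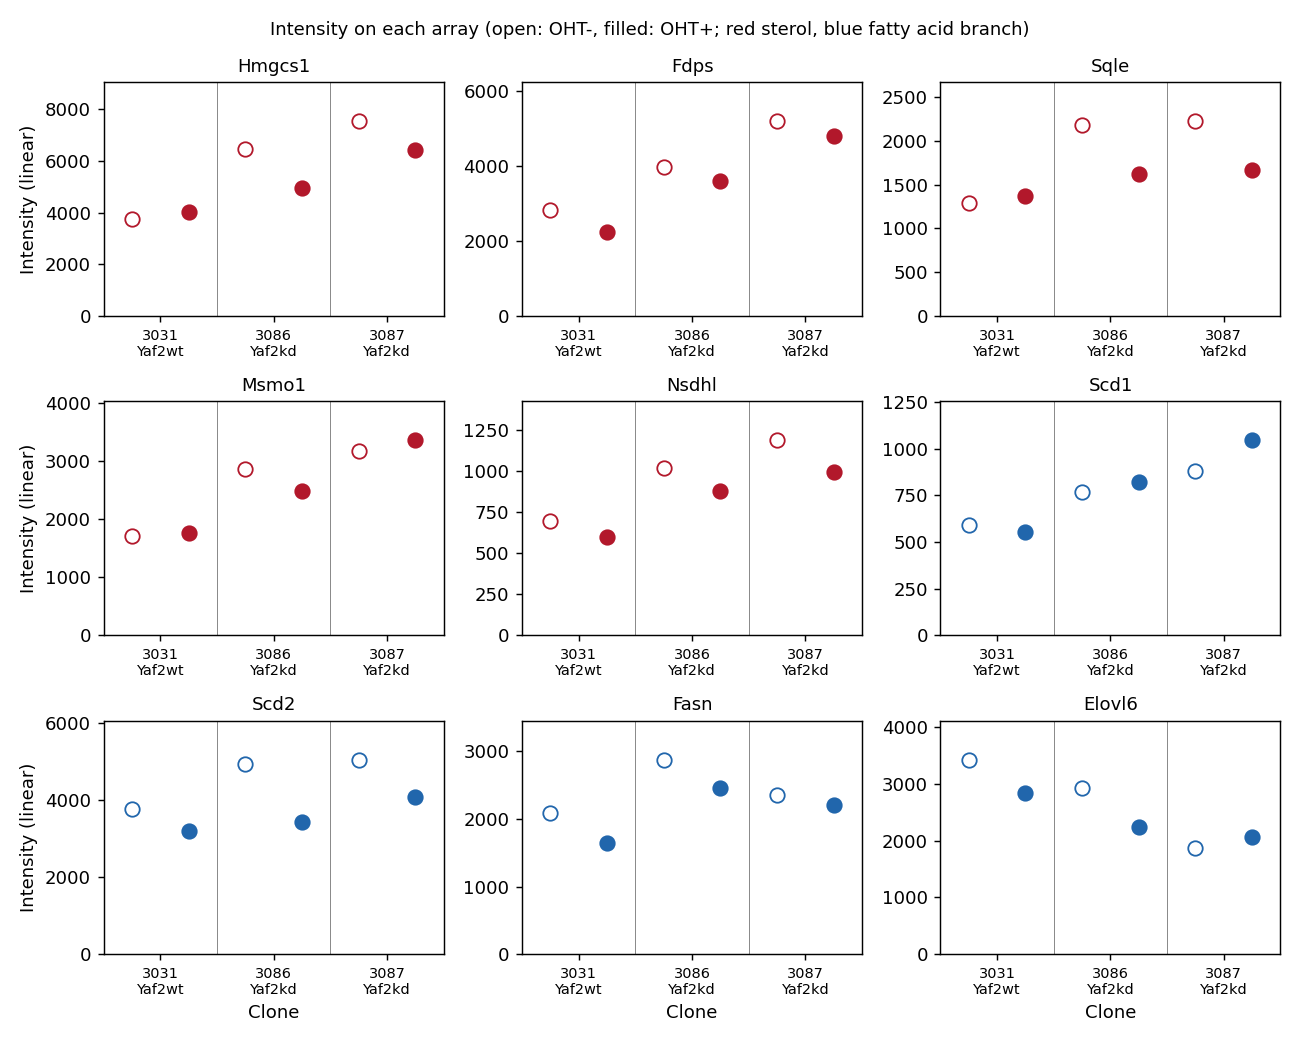
Linear intensity of 5 sterol members (red) and 4 fatty acid members (blue) on each array, by clone; open circles are OHT- and filled circles OHT+, 1 array each, with every axis from 0. In the sterol panels both Yaf2wt arrays lie below all 4 Yaf2kd arrays, Scd2 is lower with OHT in each clone, and Elovl6 is highest on the Yaf2wt array without OHT, at 3425.

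Of the regulators, Srebf1 read 617 without OHT and 540.4 with it in clone 3031, 682 and 735 in clone 3086, and 872 and 789 in clone 3087, which did not overlap and differed by 0.41 ± 0.17 (adjusted p 0.652). Insig1, itself a textbook SREBP target, read 1111 and 1179 in clone 3031, 1259.8 and 1243 in clone 3086, and 1980.4 and 1711 in clone 3087, in the order without and with OHT. It did not overlap between the Yaf2 groups, and its mean difference of 0.41 ± 0.19 joined 0.69 in clone 3087 with 0.13 in clone 3086.

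Srebf2 read 1277 without OHT and 834 with it in clone 3031, 1479 and 1163 in clone 3086, and 1054 and 1173 in clone 3087. The groups overlapped, and the difference of 0.23 ± 0.15 became -0.08 without the Yaf2wt array with OHT. That left clone 3031 at OHT- only, set against both OHT statuses of the Yaf2kd clones. The message level of Srebf2 thus did not separate the Yaf2 groups on these arrays, and its cleavage was not measured.

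Taken at each OHT status, the Yaf2 comparison gave these counts. Without OHT, 27 of 29 members were higher in Yaf2kd (18 of 18 sterol, 7 of 8 fatty acid, 2 of 3 regulators), against 51.7% of all genes, with medians of 0.53 for sterol and 0.31 for fatty acid members. With OHT, 28 of 29 were higher (18 of 18, 7 of 8 and 3 of 3), against 55.1% of all genes, with medians of 0.44 and 0.36. With all probe sets of a gene averaged, the counts were 14 of 18 sterol members and 23 of 29 members without OHT, where Fdps, Fdft1, Cyp51 and Sc5d read lower, and 16 of 18 and 26 of 29 with it. The averages of these 4 genes took in probe sets of lower signal. Their mean intensities were 1.44 for Fdps, 17.9 and 16.5 for Fdft1, 24.2 for Cyp51 and 84 for Sc5d. Sc5d also had a probe set of higher signal at -0.35 in the averaged Yaf2 comparison. Without the OHT- array of clone 3087, 15 of 18 sterol members (all but Mvk, Tm7sf2 and Ebp) and 25 of 29 members were higher without OHT. In limma's 4-group model no member passed in either comparison, as no gene did (0% and 0%), and the lowest adjusted p of a member was 0.948 (Sqle) without OHT and 0.855 with it. At an unadjusted p under 0.05 in limma, 11 members were higher and 0 lower without OHT, where 2.85% of all genes were higher and 1.62% lower. With OHT it was 9 higher and 0 lower, where 3.41% and 2.25% of all genes were.

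Without OHT the largest differences were those of Hmgcs1 (0.89 ± 0.19), Msmo1 (0.82 ± 0.20) and Sqle (0.77 ± 0.15). With OHT they were those of Fdps (0.90 ± 0.22), Mvk (0.76 ± 0.33) and Scd1 (0.75 ± 0.22). Sqle was then 0.27 ± 0.15 above Yaf2wt.

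The adjusted calls depended on which genes entered the fit. When the dimmest 40% of genes were set aside, limma called 37 of 10916 genes (0.339%) in the averaged comparison, and among them Fdps (adjusted p 0.00964), Hmgcs1 (0.00986) and Msmo1 (0.0146). The fatty acid median of 0.33 became 0.17 without the Yaf2wt OHT+ array. With an array left out, its clone entered at a single OHT status, so an OHT difference was mixed into the Yaf2 value. Without an intensity trend in the variance prior, 0 of 29 members had an unadjusted p under 0.05 in limma in the averaged comparison. Of all genes, 3.72% were then higher and 2.09% lower at that threshold. Leaving out the Yaf2kd OHT+ array of clone 3087 called Fdps, Hmgcs1 and Msmo1 (adjusted p 0.0235, 0.0386 and 0.0386) among 22 genes (0.121%), and leaving out the Yaf2wt OHT- array called Fdps (0.0471) among 25 (0.137%). Without the Yaf2kd OHT+ array of clone 3086 the lowest adjusted p of a member in limma was 0.9998, and without the Yaf2kd OHT- array of clone 3087 it was 0.867. With the 6 arrays fitted one by one and the dimmest genes set aside, a fit chosen after seeing the data, Msmo1 was called in limma (adjusted p 0.0484) among 14 genes (0.128%).

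The 2 Yaf2kd clones differed from each other in the sterol branch. All 18 sterol members were above clone 3031 in both clones, by medians of 0.41 in clone 3086 and 0.52 in clone 3087. Clone 3087 was above clone 3086 for 17 of 18 (all but Stard4), by a median of 0.18, where 43.7% of genes of higher signal were above and the median was -0.03. Both arrays of clone 3087 exceeded both of clone 3086 for 8 of 18 sterol members and 12 of all 29, against 14.7% of all genes and 13.2% of genes of higher signal. Insig1 (0.56) and Dhcr7 (0.49) had the widest gaps between these clones. In the fatty acid branch the clone order was mixed: 3 of 8 members were higher in clone 3087, the median was -0.02, and Fasn, Elovl6 and Fads1 had both clone 3087 arrays below both clone 3086 arrays, against 18.3% of all genes and 19.5% of genes of higher signal.

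At the level of single arrays, Yaf2wt with OHT was the lowest array for 21 of 29 members, against 21.9% of genes of higher signal, and Yaf2wt without OHT for 7. Clone 3087 without OHT was the highest array for 14 of 29 members and for 11 of 18 sterol members, against 18.8% of genes of higher signal. The median deviation of the fatty acid branch from its gene means was -0.07 and -0.30 on the Yaf2wt arrays without and with OHT, and 0.21 and 0.02 in clone 3086 and 0.10 and 0.03 in clone 3087. Over all genes of higher signal the array medians of this deviation stayed between -0.03 and 0.03.

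OHT was tested over the 3 clones with Yaf2 status in the model. Here 23 of 29 members were lower with OHT, with a median of -0.12, against 50.5% of all genes. The sterol branch had 13 of 18 lower (median -0.13), the fatty acid branch 7 of 8 (median -0.13) and the regulators 3 of 3. The sterol median was -0.03 without either the OHT+ array of clone 3086 or the OHT- array of clone 3087, and -0.0066 with all probe sets of a gene averaged. By clone, the fatty acid medians were -0.21 in clone 3031 (0 of 8 higher), -0.24 in clone 3086 (2 of 8) and 0.02 in clone 3087 (5 of 8). No member passed limma's adjusted test, against 60 genes (0.33%, 49 higher and 11 lower) of all those tested. At an unadjusted p under 0.05 in limma, 3 members were lower (Scd2, Fads2 and Sqle) and none higher, where 5.09% of all genes were lower and 5.33% higher. The clones pair the arrays; with clone as a replicate block 105 genes were called, no member among them. In that fit 7 members were lower at an unadjusted p under 0.05 in limma (Fads2, Fasn, Fdft1, Fdps, Nsdhl, Scd2 and Sqle) and none higher, where 6.19% of all genes were lower and 6.19% higher.

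Scd2 read 3786 without OHT and 3196 with it in clone 3031, 4935 and 3440.3 in clone 3086, and 5059 and 4081 in clone 3087. Each clone was lower with OHT, by 0.24, 0.52 and 0.31 on the log2 scale, while the arrays of different clones overlapped. The difference was -0.36 ± 0.09 (SE, 3 clones), with a limma adjusted p of 0.180. Its other probe sets gave -0.26 and -0.39. Scd2 was called with clone as a block and the genes of lowest signal left out (adjusted p 0.0477), among 349 of 10916 genes (3.2%), and, on 2 clones, without clone 3087 (0.0450), among 269 of 18194 (1.48%).

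Fads2, with the values given above, was the 1 member for which all 3 OHT+ arrays (335 to 444) lay below all 3 OHT- arrays (448 to 572), against 7.08% of all genes and 8.24% of genes of higher signal. The reverse held for no member, against 7.49% and 8.21%. Its difference was -0.38 ± 0.13 (adjusted p 0.342), with -0.42, -0.42 and -0.31 in clones 3031, 3086 and 3087. Fasn was lower by a mean of 0.22 (-0.22 ± 0.10), also in each clone. Elovl6 (-0.17 ± 0.15) was lower in clones 3031 and 3086 and higher in clone 3087.

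In the sterol branch, Sqle differed with OHT by 0.08 in clone 3031, -0.43 in clone 3086 and -0.42 in clone 3087. Its value was -0.26 ± 0.11 over the 3 clones (adjusted p 0.476) and -0.42 ± 0.12 in Yaf2kd (adjusted p 0.496). Hmgcs1 had the same order of signs, at 0.09, -0.39 and -0.23. Nsdhl (-0.23 ± 0.11) and Fdft1 (-0.22 ± 0.10) were lower in all 3 clones. For Fdft1 the value was 0.10 with its probe sets averaged, of which the other of higher signal gave -0.31 and those of lower signal -0.15 and 1.07. Mvk (-0.23 ± 0.22) was not, since it ran from -0.65 in clone 3031 to 0.17 in clone 3086.

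The array with OHT was the lower of the pair in all 3 clones for 10 of 29 members: Idi1, Fdps, Fdft1, Lss, Tm7sf2, Nsdhl, Sc5d, Fasn, Scd2 and Fads2. That count compares with 17.6% of all genes and 20.4% of genes of higher signal. Hsd17b7 was higher with OHT in all 3 clones, as 16.8% of all genes and 18.2% of genes of higher signal were. Among the regulators, Srebf2 was at -0.27 ± 0.15 over the 3 clones but at -0.62, -0.35 and 0.15 in clones 3031, 3086 and 3087, and without clone 3087 it was called at -0.48 (adjusted p 0.0335), among 269 genes (1.48%). Srebf1 (-0.08 ± 0.13) and Insig1 (-0.05 ± 0.17) had differences smaller than their errors.

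**Figure D4:**
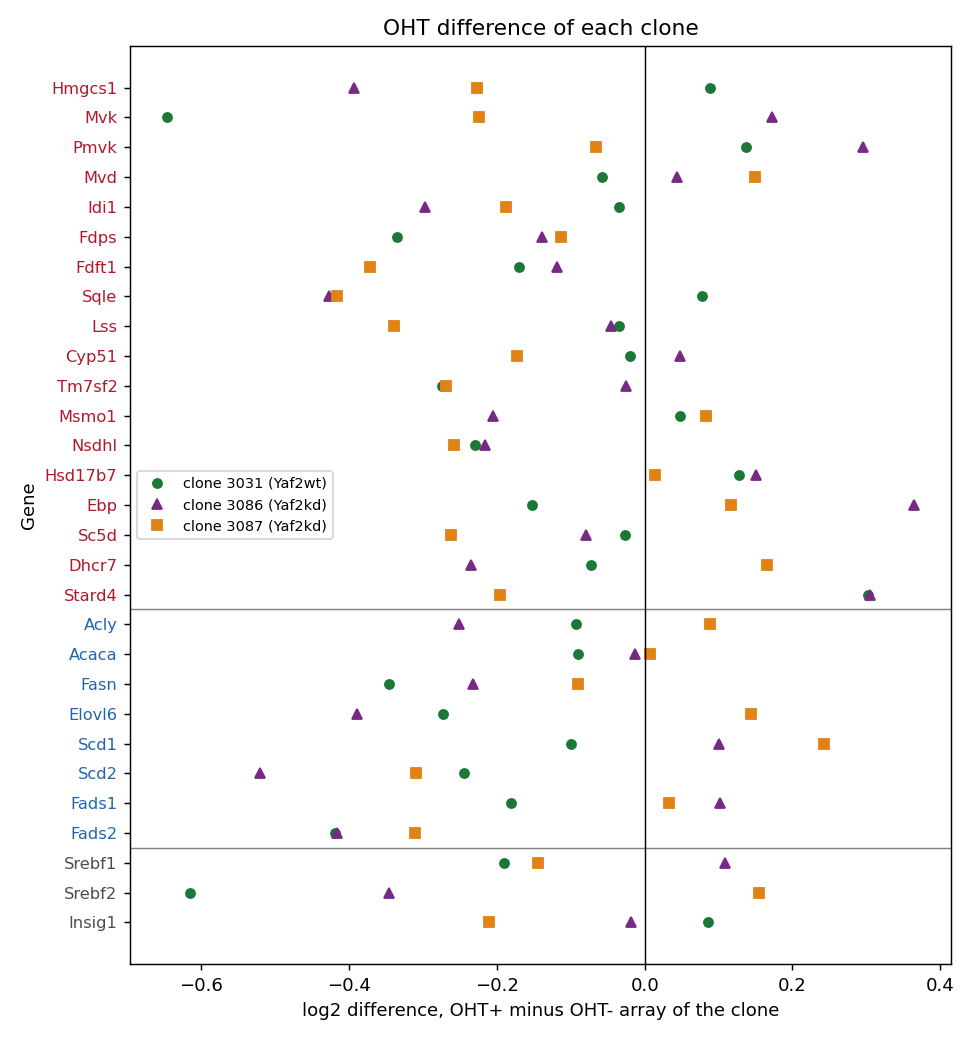
Log2 difference between the OHT+ and the OHT- array of each clone for the 29 members, 1 pair of arrays per point, with names in red for sterol, blue for fatty acid and grey for regulator members. Scd2 and Fads2 lie left of 0 in all 3 clones, between -0.24 and -0.52, while Sqle lies at 0.08 in clone 3031 and at -0.43 and -0.42 in the Yaf2kd clones.

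Within Yaf2kd, OHT called 9 of all genes (0.0495%) and no member, with 22 of 29 members lower and a median of -0.10. The count lower was 12 of 29 without the OHT- array of clone 3087, 17 without the OHT+ array of clone 3086 and 16 with all probe sets of a gene averaged. With clone as a replicate block the call was 109 genes and no member, and 3 members (Hmgcs1, Scd2 and Sqle) were lower at an unadjusted p under 0.05 in limma, where 4.63% of all genes were. Without the block, at an unadjusted p under 0.05 in limma, Sqle and Scd2 (-0.42 ± 0.12 each) were lower and no member higher, where 3.39% of all genes were lower and 4.17% higher. Whether the OHT difference depended on Yaf2 status was tested as an interaction, for which no gene and no member passed in limma (0%). Sqle had the 1 member difference with an unadjusted p under 0.05 in limma, at -0.50 ± 0.21 (adjusted p 1), where 1.15% of all genes were lower and 1.09% higher. In this comparison 15 of 29 members were higher, with a median of 0.01, against 53.3% of all genes. By branch, 6 of 18 sterol members were higher (median -0.04) and 7 of 8 fatty acid members (median 0.12). A difference between the branches was not tested. The Yaf2wt OHT+ array was the lowest array for 7 of 8 fatty acid members. The interaction rests on 1 pair of Yaf2wt arrays.

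The markers of other cells and of the stem cell state were set beside these differences. Summed intensity of the 12 stem cell markers was 104100 to 113000 on Yaf2kd and 111000 to 118700 on Yaf2wt arrays, and 112900 to 118700 with OHT against 104100 to 111000 without it. The largest part of that sum was Dppa5a, which read 35390 to 39830. In the averaged Yaf2 comparison 9 of the 12 were lower and 3 higher, with the largest difference in Klf4 (-0.68 ± 0.13). With OHT, 9 of the 12 were higher in all 3 clones, against 16.8% of all genes. Lower in all 3 were 2, against 17.6%. The 14 fibroblast markers summed to 10220 to 13420 on Yaf2kd and 13150 to 13250 on Yaf2wt arrays, with most of that sum from Fn1, which read 8127 to 11460 and differed by -0.23 ± 0.12 in the Yaf2 comparison. The other 13 summed to 2090 to 3152 on Yaf2kd and 1788 to 2303 on Yaf2wt arrays, and to 2303 to 3152 with OHT against 1788 to 2277 without it, and 10 of the 14 were higher in Yaf2kd. The 12 endoderm markers summed to 1401 to 1905 on Yaf2kd and 1363 to 1370 on Yaf2wt arrays. In the averaged Yaf2 comparison the medians of these lists were -0.14, 0.30 and 0.22, and in the OHT comparison 0.25, 0.46 and -0.05. Their part in the differences of the members was not tested. Fewer cells of a type and less RNA per cell cannot be told apart in these bulk samples.

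Genes next to the pathway were taken from lists by function. Of 20 genes for sterol sensing, fatty acid activation, elongation and related steps, 16 were higher in Yaf2kd, with a median of 0.15, and none passed in limma; all 4 Yaf2kd arrays lay above both Yaf2wt arrays for 5 of them, against 11% of all genes and 12.9% of genes of higher signal. Its brightest members were Sqstm1, an autophagy receptor (0.20 ± 0.11), Tecr, which completes fatty acid elongation (0.24 ± 0.11), and Mbtps1, the site-1 protease that cleaves SREBPs (-0.02 ± 0.14). Acsl3, an acyl-CoA synthetase (0.55 ± 0.14), and Rdh11, a retinol dehydrogenase (0.66 ± 0.19), were chosen after their values were seen. Acsl3 read 868 without OHT and 763 with it in clone 3031, 1247 and 1088 in clone 3086, and 1391 and 1074 in clone 3087, with no overlap between the Yaf2 groups.

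Of 10 measured genes for sterol efflux and the liver X receptor response, which acts when sterols are plentiful, 5 were higher and 5 lower in Yaf2kd. Their median was -0.01. For none did all 4 Yaf2kd arrays lie above both Yaf2wt arrays, against 11% of all genes and 12.9% of genes of higher signal. Apoe, a lipid carrier (-0.15 ± 0.11), Npc2, which moves cholesterol out of lysosomes (-0.06 ± 0.11), and Lpcat3, which remodels phospholipids (-0.10 ± 0.14), were the brightest. Of 13 genes for fatty acid oxidation, 6 were higher and 7 lower in Yaf2kd, with a median of -0.06. The brightest were Acadm (-0.13 ± 0.12), Acadl (0.0005 ± 0.12) and Cpt1a (-0.06 ± 0.13). With OHT, 11 of these 13 were higher, with a median of 0.15 and none passing in limma. The nearest was Slc25a20, the mitochondrial acylcarnitine carrier, at 0.62 ± 0.11 (adjusted p 0.0698); it was chosen after its value was seen. It read 1113 without OHT and 1651 with it in clone 3031, 898 and 1570 in clone 3086, and 1165 and 1626 in clone 3087, higher in each clone. Acadl went the other way with OHT, at -0.27, -0.38 and -0.30 in clones 3031, 3086 and 3087.

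The other probe sets of the members gave a second reading of most genes, though from the same RNA. Of 38 other probe sets of 20 members, 29 had the same direction as the brightest in the Yaf2 comparison: 23 of 26 of higher signal and 6 of 12 of lower signal. The 3 of higher signal with the opposite direction were of Sc5d (-0.35 against 0.27 for the brightest), Fads1 (-0.22 against 0.21) and Acly (-0.04 against 0.12). Of the 26, 12 had all 4 Yaf2kd arrays above both Yaf2wt arrays, as 11% of the 8258 other probe sets of higher signal over all genes had. The 3 other probe sets of higher signal for Hmgcs1 gave 0.47, 0.57 and 0.79 without overlap, that of Fdft1 0.47 and that of Scd1 0.70. Overlap was seen, among others, for those of Msmo1 (0.46), Idi1 (0.27), Cyp51 (0.20) and Stard4 (0.31 and 0.44). In the OHT comparison 19 of the 26 had the direction of the brightest.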

How the data were processed

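RNA levels of 6 arrays were taken from the authors' deposited table of probe-set intensity values; RMA and Affymetrix Expression Console are listed, with no role or version, in the submitters' processing notes. Values were linear and every array held the same sorted values, so the deposited intensity was put on the log2 scale, without a pseudocount. Of 45101 probe sets, 34958 had 1 gene symbol, 932 several and 9211 none; 99.4% of the first matched RefSeq identifiers (GRCm38.p6), and the brightest probe set stood for each of 18194 genes.

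Each model was run in limma 3.58.1 (R 4.3.3; lmFit, eBayes) with an intensity trend, because the spread between the Yaf2kd clones was larger at low signal (median SD 0.52 for the lowest 40%, 0.13 for the others, 0.14 for members). P-values were adjusted by Benjamini-Hochberg over all genes. The Yaf2 comparison averaged over OHT used clone means (2 against 1); Yaf2 at each OHT status, OHT in Yaf2kd and the interaction used 4 groups, where the lone Yaf2wt array was assumed to vary like the Yaf2kd arrays; OHT over 3 clones used Yaf2 status and OHT. The scripts were tested on simulated data. Arrays of one clone are paired by the labels; the clone 3087 minus 3086 difference with OHT and without it had r = 0.12 over 10916 genes (2 pairs). The clone entered as a fixed block for OHT and as a random block elsewhere, with the correlation of the 2-factor model, since the 4-group model gave none.

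Array values in full were given for up to 4 members per branch with the largest difference in the averaged Yaf2 and the 3-clone OHT comparisons; other lists had their 3 brightest genes named unless stated. The members and lists were chosen with earlier results of these data known. The number of arrays, not read depth, limits precision.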

Additional observations from a re-analysis of the deposited data

How the results depend on the processing

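The counts of genes called depended on the filter, the variance prior and the block, and the members called are named above for each such fit. In the averaged Yaf2 comparison, 0 genes became 37 without the genes of lowest signal, 5 with clone as a random replicate block on 6 arrays and 14 on 6 arrays without the genes of lowest signal; leaving out 1 array gave 0 to 25. For OHT over 3 clones, 60 became 0 with no intensity trend, 126 without the genes of lowest signal, 39 with the mean of all probe sets, 105 with clone as replicate block and 349 with that block and without the genes of lowest signal; leaving out an array or a clone gave 9 to 269. For OHT in Yaf2kd, 9 became 0 with no intensity trend, 42 without the genes of lowest signal and 109 with clone as replicate block; leaving out 1 array gave 0 to 14. The 14, the 349 and the fits without a clone were chosen after seeing the data. The Yaf2 comparisons at each OHT status and the interaction stayed at 0 under every alternative run. The replicate block on its own changed no member's call. The cause was not tested. With the mean of all probe sets, the sterol median was 0.31 (with OHT) and 0.37 (averaged) for Yaf2, and -0.0066 (3 clones) and 0.056 (Yaf2kd) for OHT; the fatty acid median for Yaf2 was 0.26 without OHT, 0.45 with it and 0.42 averaged, and with arrays centred it was 0.33 with OHT. With 1 array left out, the sterol median for Yaf2 was 0.42 to 0.63 without OHT, and 0.40 to 0.52 averaged; the fatty acid median was at its lowest 0.24 without OHT and 0.17 to 0.41 averaged; for OHT in Yaf2kd the sterol median was -0.23 to 0.056 and the fatty acid median -0.25 to 0.0072; for the interaction the sterol median was -0.17 to 0.089; and for OHT over 3 clones the sterol median was -0.19 to -0.031. Among the members picked in each comparison by the size of its difference, direction turned for Srebf2 in the averaged Yaf2 comparison (-0.081 without Yaf2wt OHT+, within -0.081 to 0.53), and in the OHT comparison for Fdft1 (0.10 with the mean of all probe sets), Srebf1 (0.0094 without Yaf2kd OHT- of clone 3087) and Insig1 (0.10 without Yaf2kd OHT+ of clone 3086, 0.16 without Yaf2kd OHT- of clone 3087, 0.033 without clone 3087). Leaving out 1 array gave -0.19 to 0.0094 for Srebf1 and -0.22 to 0.16 for Insig1. Over all 29 members, 28 were higher in the averaged Yaf2 comparison, and 26 were without Yaf2wt OHT+ and 25 with the mean of all probe sets. A clone with an array left out stood at a single OHT status in the averaged comparison. In the 3-clone OHT comparison up to 7 of 29 members turned under 1 alternative, the mean of all probe sets. Of the values of the members so picked, 313 kept their direction and side of the threshold, 11 came to pass it and 6 reversed.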
